A study of Homo sapiens with 16 samples.

Results

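The 10 genes described here respond to, or act on, the ERK mitogen-activated protein kinase cascade, and each was followed through every library of the series. They are the ERK phosphatases DUSP4 and DUSP6, the Sprouty genes SPRY1, SPRY2 and SPRY4, the Sprouty-related SPRED1, the PEA3 ETS transcription factors ETV1, ETV4 and ETV5, and PHLDA1. The 10 were taken by name from the 58302 genes in the count files, and each name had 1 gene identifier. Of these, 8 passed the filter on low counts and were tested among 22553 genes. ETV1 and ETV5 did not pass and are described by their counts. The cells were VCaP, a human prostate cancer cell line whose TMPRSS2-ERG fusion puts the ETS factor ERG under androgen control. For 4 months the cells were kept in ethanol, the vehicle (Vc), or in 1 µM enzalutamide, an antiandrogen drug (Ver). All groups were then starved, the controls included, for 48 h or longer without phenol red and in serum stripped with charcoal, which removes steroid hormones. For the next 24 h each line received control medium, 1 nM dihydrotestosterone (DHT, an androgen), enzalutamide at 1 µM, or both compounds together, giving 8 groups of 2 libraries. Vc and Ver were 1 line each, and every Vc library was sequenced on lane 8 and every Ver library on lane 2, so line and lane cannot be told apart. The labels do not say whether the 2 libraries of a group came from separate cultures, so p-values measure the spread between libraries, which may be technical.

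Growth factor receptors signal through RAS, RAF and MEK to ERK, and active ERK raises the transcription of genes that then hold the cascade back. DUSP4 and DUSP6 remove phosphate from ERK, DUSP4 in the nucleus and DUSP6 in the cytoplasm. Sprouty and SPRED proteins act higher up, between the receptor and RAF. ETV1, ETV4 and ETV5 are transcription factors whose messenger RNA follows ERK activity in many cell types, and ETV1 and ETV4 are translocation partners in some prostate cancers that lack an ERG fusion. PHLDA1, a pleckstrin homology domain protein, is also induced by ERK signalling in several tissues. The transcripts of these genes are widely read together as a gauge of ERK output. Phosphorylated ERK itself was not measured here.

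The genes lie on different chromosomes except DUSP6 and PHLDA1 (GRCh38, GENCODE release 29). SPRY1 spans chr4:123396795-123403760 on the plus strand, and SPRY4 spans chr5:142310427-142326455 on the minus strand. SPRY2 lies at chr13:80335976-80340951, SPRED1 at chr15:38252326-38357249, DUSP6 at chr12:89347232-89353271 and PHLDA1 at chr12:76025447-76033932. ETV1 lies at chr7:13891228-13991425, ETV4 at chr17:43527844-43579620 and ETV5 at chr3:186046308-186110318. Reads were counted without regard to strand, and a read in the exons of 2 genes was set aside. That touches DUSP6 most, since the antisense gene AC024909.2 covers 1875 of its 4632 exonic bases. PHLDA1 shares 553 and 779 exonic bases with the antisense genes AC011611.3 and AC011611.4. ETV4 shares 68 with DHX8 and ETV5 shares 164 with DGKG. SPRY4 shares none, and its antisense neighbour SPRY4-AS1 had 46 counts in all 16 libraries against 6537 for SPRY4.

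The promoters of SPRY1 and SPRY4 are shown because these are the Sprouty genes that rose together when enzalutamide was added to DHT, while with DHT alone SPRY1 fell and SPRY4 was not called. Each sequence is the 250 bases before the gene's RefSeq start (GRCh38.p14), 5′ to 3′ on the gene's strand. The first covers chr4:123396545-123396794 (plus strand) and the second chr5:142324248-142324497 (minus strand). Capitals mark the ETS core GGAA or its reverse complement TTCC.
SPRY1: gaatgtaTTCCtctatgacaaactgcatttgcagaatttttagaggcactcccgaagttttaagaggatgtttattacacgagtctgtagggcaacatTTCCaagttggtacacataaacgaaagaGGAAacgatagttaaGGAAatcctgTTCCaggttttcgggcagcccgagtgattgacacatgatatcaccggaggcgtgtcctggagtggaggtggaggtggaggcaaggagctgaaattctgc
SPRY4: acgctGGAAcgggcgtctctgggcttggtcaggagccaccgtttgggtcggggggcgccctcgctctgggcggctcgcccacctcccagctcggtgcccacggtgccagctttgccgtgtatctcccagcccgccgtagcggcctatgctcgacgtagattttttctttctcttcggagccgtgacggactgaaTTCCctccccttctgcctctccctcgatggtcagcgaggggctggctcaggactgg
The SPRY1 window ends at the start of the GENCODE gene. The SPRY4 window ends 2208 bases inside the GENCODE gene, and 170 of its 250 bases are in an annotated SPRY4 exon. SPRY1 held 5 core matches and SPRY4 held 2. Such a short motif is common: 92.7% of the 35116 RefSeq promoters of that length held at least 1 on either strand. G and C made up 45.6% of the SPRY1 window and 65.6% of the SPRY4 window, against a median of 58% over all promoters. RefSeq promoters were at hand for 7 of the 10 genes (DUSP6, SPRY1, SPRY2, SPRY4, SPRED1, ETV1 and PHLDA1).

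Each library held between 8155244 and 13273523 counts in genes. The share of reads that the counting assigned to no gene feature was 45.0 to 50.6%, lower within each line in the libraries with DHT. A further 7.09 to 8.55% of reads were ambiguous. All 11 VCaP markers (KLK3, ERG, EPCAM and others) averaged at least 1 CPM, the TMM-scaled count of a gene as a rate per library size, and they summed to 11028 to 13533 CPM. Of 12 markers of fibroblasts, endothelial and immune cells, 10 averaged under 1 CPM and none was at 0 in every library. Their sum, mostly LUM, moved with the treatments: it was 16.7 to 17.9 CPM in Vc control and 2.96 to 5.08 with DHT, and 53.2 to 60.7 in Ver control and 4.01 to 4.71 with DHT. With enzalutamide it was 19.9 to 20.7 in Vc and 77.9 to 85.1 in Ver, and with both compounds 6.17 to 9.07 and 20.4 to 30.9. The part of these shifts in the results below was not tested. In bulk RNA, fewer cells that make a transcript and less transcript per cell cannot be told apart.

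SPRY4 was by far the most abundant of the 10 genes. It took 66.6% of their counts, and SPRY1 took 12.4%. Per kilobase of exon, which is the scale used to compare genes, the mean level over 16 libraries was 5.57 CPM for SPRY4 and 1.73 for SPRY1. SPRED1 (0.491), ETV4 (0.461) and PHLDA1 (0.374) were lower, followed by SPRY2 (0.259), DUSP4 (0.184) and DUSP6 (0.145). DUSP6 would be 0.243 CPM per kilobase of exon not shared with another gene, close to SPRY2, so the order of these low genes is uncertain. The ranges of neighbours in this order overlapped over the libraries. SPRY4 ran from 2.45 to 13.7 CPM per kilobase and SPRY1 from 0.536 to 2.80, SPRED1 from 0.295 to 0.834, ETV4 from 0.232 to 0.893 and PHLDA1 from 0.139 to 0.613. Among tested genes, mean CPM placed SPRY4 at percentile 76.0, SPRY1 at percentile 49.3 and DUSP6 at percentile 8.52.

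The PEA3 factors were scarce. ETV1 had 20 counts in all 16 libraries and was at 0 in 7 of them. ETV1 was at 0 in all 4 DHT libraries, Vc and Ver, where 0 counts allow up to 0.246 to 0.305 CPM (3 counts), and its largest value elsewhere was 5 counts, in Vc control. ETV5 had 24 counts, at most 6 in one library, and was at 0 in 8 libraries. ETV4 was measurable, at 0.838 to 3.22 CPM with no library at 0.

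**Figure D1:**
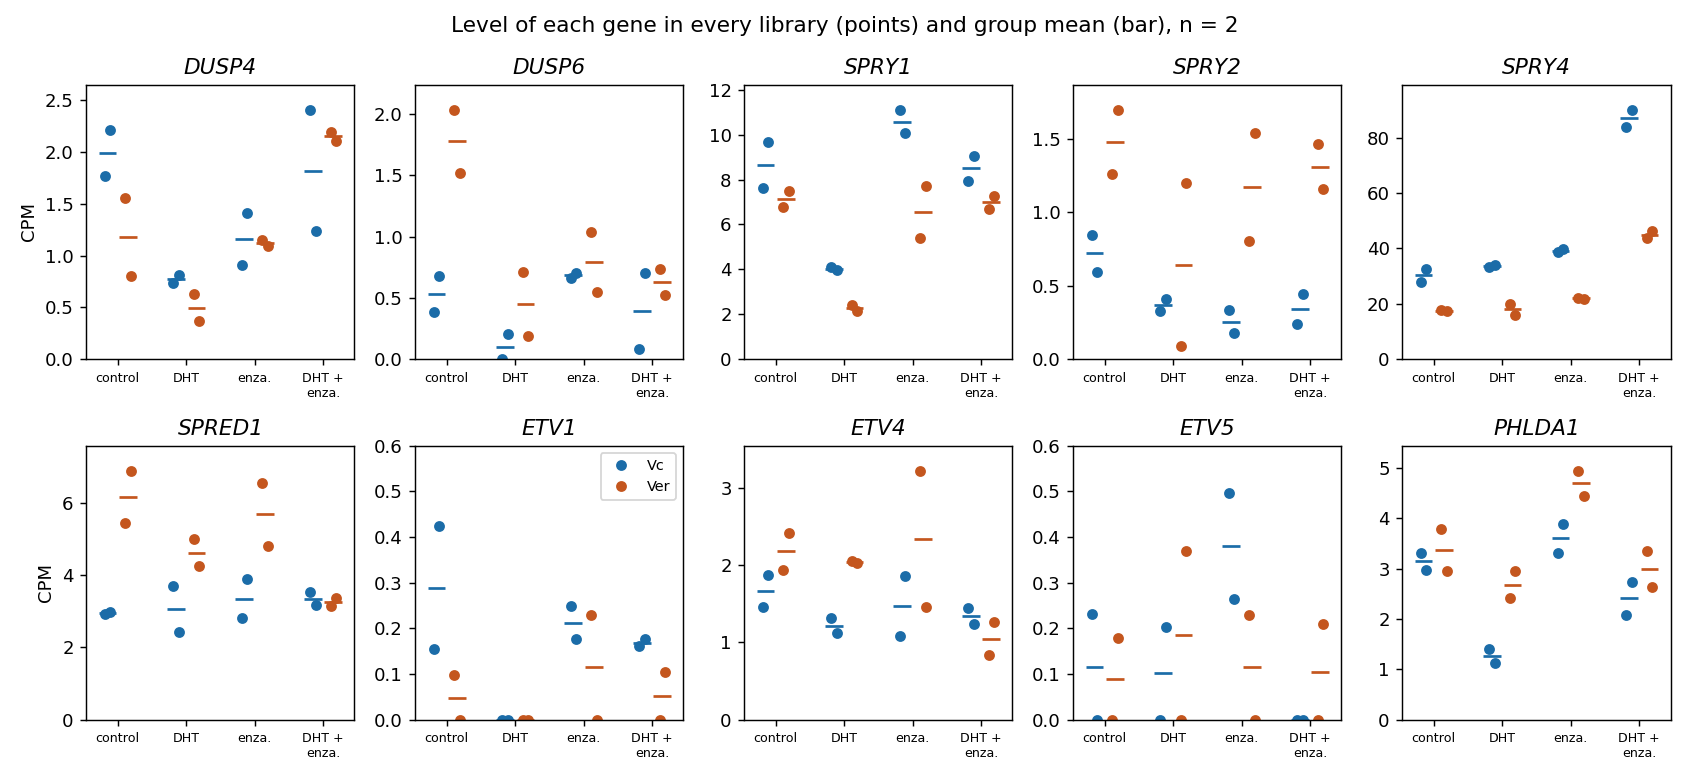
Level of each of the 10 genes in CPM (vertical axes, linear, scaled per gene) under the 4 treatments, with 1 point per library and a bar at the mean of 2 libraries, Vc in blue and Ver in orange. SPRY4 stands highest with DHT plus enzalutamide in both lines, SPRY1 is lowest with DHT, and ETV1 and ETV5 reach at most 0.425 and 0.497 CPM.

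With DHT, SPRY1 fell in both lines, DUSP4 and PHLDA1 fell in Vc, and DUSP6 fell in Ver. No tested gene of the 10 rose. SPRY1, an inhibitor of receptor tyrosine kinase signalling, measured 7.62 and 9.69 CPM in the 2 Vc control libraries and 4.11 and 3.96 with DHT. In Ver it measured 6.79 and 7.51 CPM in control and 2.41 and 2.12 with DHT. Both DHT libraries lay below both controls in each line, with no overlap. SPRY1 fell by 1.09 on the log2 scale in Vc (SE 0.240, adjusted p = 3.58e-05) to a level 2.13-fold lower. In Ver it fell by 1.65 (SE 0.281, adjusted p = 5.35e-08) to a level 3.15-fold lower. These calls held under every alternative run, including leaving out each library.

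PHLDA1 was 3.31 and 2.97 CPM in Vc control and 1.40 and 1.12 with DHT. It was 3.78 and 2.95 CPM in Ver control and 2.41 and 2.95 with DHT. The groups were apart in Vc and overlapped in Ver. PHLDA1 fell by 1.30 on the log2 scale in Vc (SE 0.396, adjusted p = 0.00274). In Ver the log2 change was -0.33 (SE 0.346, adjusted p = 0.481). The 2 changes were not shown to differ: their difference was 0.98 (SE 0.525, unadjusted p = 0.0614, adjusted p = 0.447).

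The ERK phosphatases were low, and their calls were fragile. DUSP4, at chr8:29333064-29350668, measured 1.77 and 2.21 CPM in Vc control (23 and 26 counts) and 0.739 and 0.813 with DHT (9 and 8 counts). In Ver it measured 1.55 and 0.805 CPM in control and 0.624 and 0.369 with DHT. The DHT libraries were the lower ones in each line, without overlap. At 0.369 to 0.813 CPM they lay below the low-count filter's level of 0.900 CPM. DUSP4 was therefore admitted to the test only through groups without DHT alone, which favours a fall with DHT. DUSP4 fell by 1.35 on the log2 scale in Vc (SE 0.546, adjusted p = 0.0291), and in Ver the log2 change was -1.21 (SE 0.642, adjusted p = 0.105). The Vc call was lost without Vc control replicate 2 (adjusted p = 0.151), without Vc DHT replicate 1 (0.143) or replicate 2 (0.0861), with no filter on low counts (0.0531) and in DESeq2 (0.0954).

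DUSP6 had 21 and 17 counts in Ver control (2.04 and 1.52 CPM) and 8 and 2 with DHT (0.713 and 0.185 CPM). In Vc it had 5 and 8 counts in control (0.385 and 0.680 CPM) and 0 and 2 with DHT. The 2 groups did not overlap in either line. DUSP6 fell by 1.95 on the log2 scale in Ver (SE 0.774, adjusted p = 0.0241). That call was lost without Ver control replicate 1 (adjusted p = 0.143), without Ver DHT replicate 2 (0.263) and in DESeq2 (0.0992). In Vc the summed counts per effective library size gave a ratio of DHT to control of 0.173 (95% exact interval from counting alone 0.0190 to 0.764), with an adjusted p of 0.0720, and without Vc DHT replicate 2 the gene was called (0.0290). DUSP6 passed the low-count filter only through Ver: it exceeded the filter's level of 0.900 CPM in 3 of 8 Ver libraries, both controls among them, and in 0 of 8 Vc libraries. The group where DUSP6 was high therefore brought it into the test, which favours a fall from that group. The Ver call held with no filter.

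SPRY4, SPRED1, SPRY2 and ETV4 were not called for DHT. SPRY4, at 28.0 and 32.6 CPM in Vc control and 33.3 and 34.0 with DHT, had a log2 change of 0.15 with a 95% interval of -0.06 to 0.36. In Ver it was 17.6 and 17.4 CPM in control and 20.1 and 16.1 with DHT, a log2 change of 0.05 (-0.20 to 0.30). The intervals were wider for the scarcer genes. SPRY2 had a log2 change of -0.97 (-2.61 to 0.67) in Vc and -1.20 (-2.59 to 0.18) in Ver, where its 2 DHT libraries had 1 and 13 counts and where it was called without DHT replicate 2 (-3.89, adjusted p = 0.00706). ETV4 had -0.44 (-1.39 to 0.51) and -0.10 (-0.96 to 0.77), and SPRED1 0.07 (-0.55 to 0.70) and -0.42 (-0.97 to 0.14).

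In all, 3 of the 8 tested genes were called in Vc and 2 in Ver, all lower. DUSP4, 1 of the 3 in Vc, was admitted only through groups without DHT alone. DUSP6, 1 of the 2 in Ver, was admitted by the Ver controls that it fell from. Of all tested genes, DHT called 44.3% in Vc (22.5% lower) and 44.1% in Ver (22.9% lower), and counts of 3 and 2 genes lie near that background. The median log2 change of the 8 was -1.03 in Vc and -0.81 in Ver, and over all tested genes -0.04 in both. The Ver median includes DUSP6 (-1.95) and SPRY2 (-1.20), which passed the filter through their level in Ver. Both medians include DUSP4 (-1.35 and -1.21), which passed only through groups without DHT alone. The medians therefore do not show that the 8 fell as a set. Being called in one line and not in the other does not show a difference between lines. The difference in DHT effect (Ver minus Vc) called 0 of the 8 genes in edgeR, with 0 at an unadjusted p under 0.05 and 0 in DESeq2. Of all tested genes, edgeR called 2.32%.

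Enzalutamide alone moved none of the 8 genes past the threshold. In the hormone-stripped medium SPRY4 measured 38.6 and 39.7 CPM with enzalutamide in Vc, above both controls, and 22.2 and 21.7 CPM in Ver, also above both controls. Its log2 change was 0.37 in Vc (SE 0.106, adjusted p = 0.0890) and 0.33 in Ver (SE 0.126, adjusted p = 0.278). SPRY1 measured 11.1 and 10.1 CPM in Vc and 5.41 and 7.72 CPM in Ver, log2 changes of 0.29 (-0.11 to 0.70) and -0.11 (-0.57 to 0.35). The 2 Ver libraries lay on both sides of their controls. By edgeR 0 genes of the 8 were called in each line, 1 (SPRY4) had an unadjusted p under 0.05 in each, and DESeq2 called 0. Calls were rare everywhere in this comparison, 0.537% of all tested genes in Vc and 1.13% in Ver. The lines' difference in enzalutamide effect again called 0 of the 8 in edgeR, with 0 at an unadjusted p under 0.05 and 0 in DESeq2, against 0.0222% of all genes.

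DHT plus enzalutamide gave the highest SPRY4 of the study. SPRY4, which binds and inhibits components of the receptor-to-RAF path, reached 84.0 and 90.1 CPM in Vc, where DHT alone gave 33.3 and 34.0 and enzalutamide alone 38.6 and 39.7. In Ver it reached 43.7 and 46.3 CPM, where DHT alone gave 20.1 and 16.1 and enzalutamide alone 22.2 and 21.7. Every library of the other 3 treatments lay below these, at 39.7 CPM or less in Vc and 22.2 or less in Ver. Against DHT, SPRY4 rose by 1.37 on the log2 scale in Vc (SE 0.101, adjusted p = 1.62e-25) and by 1.31 in Ver (SE 0.116, adjusted p = 3.33e-20). Against control it rose by 1.52 in Vc (SE 0.100, adjusted p = 7.95e-30), 2.87-fold, and by 1.37 in Ver (SE 0.117, adjusted p = 4.45e-21), 2.58-fold. These comparisons share the libraries with both compounds.

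SPRY1 was higher with both compounds than with DHT alone and overlapped the controls. With both compounds it measured 7.95 and 9.07 CPM in Vc and 6.70 and 7.26 CPM in Ver, above both DHT libraries and overlapping the controls in each line. Against DHT it rose by 1.07 on the log2 scale in Vc (SE 0.241, adjusted p = 0.000150) and by 1.62 in Ver (SE 0.285, adjusted p = 3.77e-07). Against control the log2 change was -0.02 in Vc (-0.44 to 0.39) and -0.04 in Ver (-0.49 to 0.42).

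DUSP4 measured 2.20 and 2.11 CPM with both compounds in Ver, above both DHT libraries, and rose against DHT by 2.09 on the log2 scale (SE 0.615, adjusted p = 0.00259). The gene passed the low-count filter only through groups without DHT alone, these libraries among them, which favours a rise against DHT. Without Ver DHT replicate 2, a library with 4 DUSP4 counts, the adjusted p was 0.0573. In Vc DUSP4 measured 2.41 and 1.23 CPM, a log2 change of 1.23 against DHT (SE 0.551, adjusted p = 0.0883). It was called without Vc DHT plus enzalutamide replicate 2 (adjusted p = 0.0459). PHLDA1 measured 2.09 and 2.73 CPM with both compounds in Vc, between DHT and control, with a log2 change of 0.92 against DHT (SE 0.408, adjusted p = 0.0907).

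SPRED1, which keeps RAS inactive by way of neurofibromin, was lower in Ver with both compounds than in control. Against DHT alone its log2 change in Ver was -0.50 (SE 0.312, adjusted p = 0.246), and it was not called. It measured 5.43 and 6.89 CPM in Ver control and 3.14 and 3.37 with both compounds, with no overlap, and fell by 0.92 on the log2 scale against control (SE 0.304, adjusted p = 0.0150). The call was lost without Ver control replicate 2 (adjusted p = 0.188), without either library with both compounds (0.105 and 0.0730) and in DESeq2 (0.0550). In Vc SPRED1 stayed between 2.44 and 3.88 CPM in all 8 libraries. ETV4 had its lowest Ver values with both compounds, 0.838 and 1.26 CPM, and a log2 change against control of -1.05 (SE 0.505, adjusted p = 0.123).

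**Figure D2:**
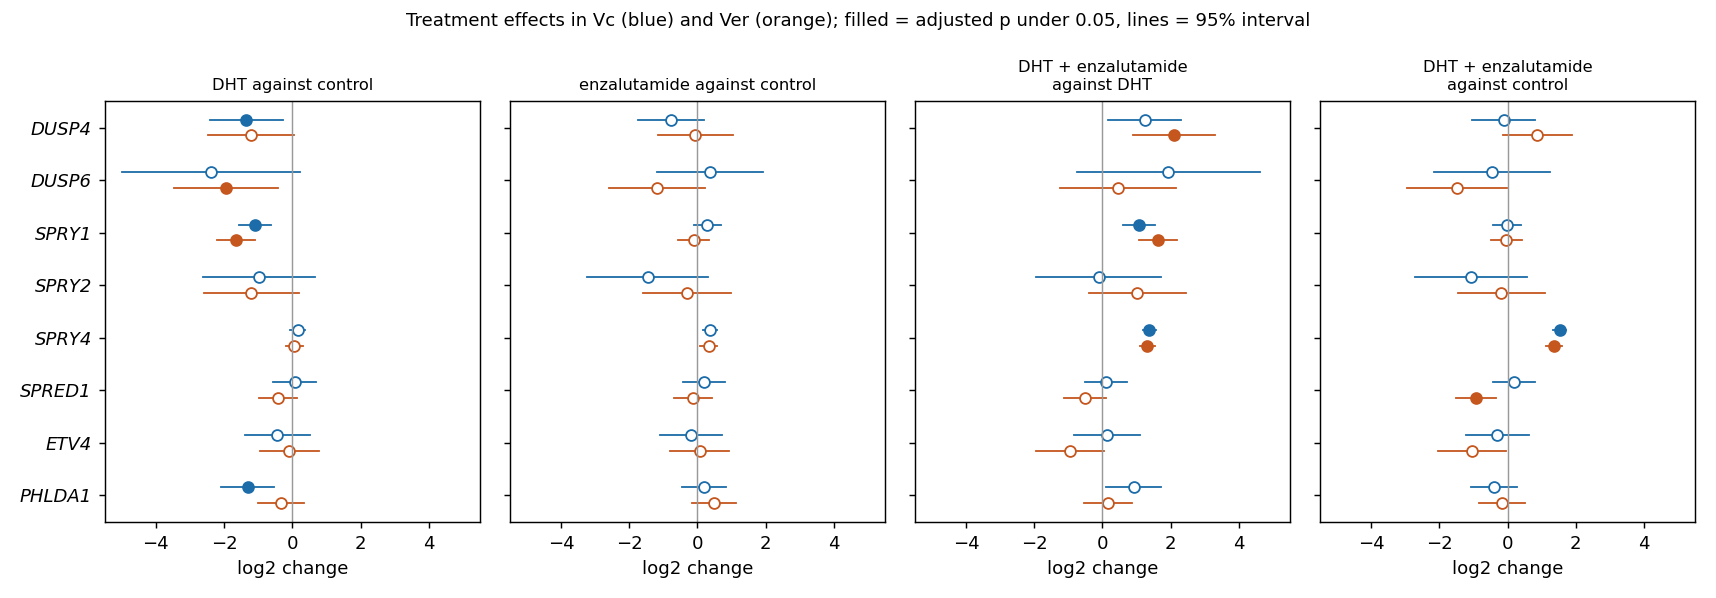
Log2 change of the 8 tested genes (horizontal axes) for 4 treatment comparisons, Vc in blue and Ver in orange, with 95% intervals as lines and called genes as filled points. SPRY1 lies left of 0 for DHT and right of 0 for DHT plus enzalutamide against DHT, and SPRY4 lies right of 0 in the 2 comparisons of DHT plus enzalutamide.

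Against DHT, 2 of the 8 genes were called in Vc (SPRY1 and SPRY4) and 3 in Ver (DUSP4, SPRY1 and SPRY4), all higher. Over all tested genes 22.4% were called in Vc (11.5% higher) and 26.9% in Ver (13.7% higher). The median log2 change of the 8 was 0.99 in Vc and 0.75 in Ver, against 0.02 in both over all genes. Both medians include DUSP6 (1.93 and 0.47), SPRY2 (-0.11 and 1.03) and DUSP4 (1.23 and 2.09). DUSP6 and SPRY2 passed the filter through Ver, and DUSP4 only through groups without DHT alone. The medians therefore do not show that the 8 rose as a set. Against control, 1 of 8 was called in Vc (SPRY4, higher), where 28.5% of all genes were called and 15.3% were higher. In Ver 2 were called (SPRY4 higher and SPRED1 lower), where 22.7% of all genes were called. The difference between lines in the effect of enzalutamide on top of DHT called 0 of the 8 in edgeR, with 0 at an unadjusted p under 0.05 and 0 in DESeq2, and 1.29% of all genes. For SPRY4 that difference was -0.06 (-0.36 to 0.24) and for SPRY1 0.55 (-0.18 to 1.28).

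Whether the 2 compounds together departed from the sum of their separate log2 effects was tested in the same fit, a comparison added after the values were seen. SPRY4 exceeded that sum by 1.00 in Vc (SE 0.146, adjusted p = 1.21e-08) and by 0.99 in Ver (SE 0.171, adjusted p = 1.39e-06). SPRY1 exceeded it by 1.73 in Ver (SE 0.368, adjusted p = 8.37e-05). In Vc its excess was 0.78 (SE 0.318, adjusted p = 0.0911). DUSP4 exceeded it by 2.01 in Vc (SE 0.743, adjusted p = 0.0481). In Ver its excess was 2.15 (SE 0.830, adjusted p = 0.0512). Since DUSP4 passed the filter only through groups without DHT alone, its excess is not independent of the filter. The DUSP4 call in Vc was lost in 7 of the 8 fits that left out 1 library, at adjusted p from 0.0557 to 0.354. It was also lost with other size factors (adjusted p = 0.0503), with no filter (0.0847) and under the replicate block (0.0514), and DESeq2 gave no adjusted p. It held when Vc DHT plus enzalutamide replicate 2 was left out. In each line 2 of 8 genes were called, all higher. Over all tested genes 14.0% were called in Vc (7.53% higher) and 16.7% in Ver (9.22% higher).

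SPRY4 was lower in Ver than in Vc under all 4 treatments. The 2 Ver libraries lay below the 2 Vc libraries each time, for instance at 17.6 and 17.4 against 28.0 and 32.6 CPM in control and at 43.7 and 46.3 against 84.0 and 90.1 CPM with both compounds. SPRY4 was lower by a log2 change of -0.79 in control (SE 0.118, adjusted p = 1.13e-08), -0.90 with DHT (SE 0.117, adjusted p = 1.26e-10), -0.84 with enzalutamide (SE 0.114, adjusted p = 5.26e-10) and -0.95 with both (SE 0.0988, adjusted p = 2.30e-15). These 4 calls held under every alternative run. Line and lane cannot be told apart in any of them.

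SPRED1 was higher in Ver control than in Vc control, at 5.43 and 6.89 against 2.93 and 2.97 CPM, without overlap. The log2 change was 1.06 (SE 0.296, adjusted p = 0.00379), and without Ver control replicate 2 the adjusted p was 0.102. Under the other treatments SPRED1 was not called: its log2 change was 0.57 with DHT, 0.75 with enzalutamide and -0.04 with both, at adjusted p of 0.213, 0.0687 and 0.951.

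SPRY1 was lower in Ver with DHT, at 2.41 and 2.12 against 4.11 and 3.96 CPM, a log2 change of -0.83 (SE 0.298, adjusted p = 0.0345). It was also lower with enzalutamide, at 5.41 and 7.72 against 11.1 and 10.1 CPM, a log2 change of -0.67 (SE 0.222, adjusted p = 0.0201). The libraries did not overlap in either case. PHLDA1 was higher in Ver with DHT, at 2.41 and 2.95 against 1.40 and 1.12 CPM, a log2 change of 1.07 (SE 0.406, adjusted p = 0.0464). Both calls with DHT were lost when any 1 of the 4 libraries was left out, at adjusted p from 0.0950 to 0.183 for SPRY1 and 0.0783 to 0.244 for PHLDA1, with no filter (0.0598 and 0.0838), with only the compared groups (0.0741 and 0.0731) and in DESeq2 (0.0769 and 0.0854). The SPRY1 call with enzalutamide was lost without Vc enzalutamide replicate 1 (adjusted p = 0.169) or 2 (0.0535), without Ver enzalutamide replicate 1 (0.335) and in DESeq2 (0.0888).

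SPRY2 was higher in Ver with enzalutamide, at 7 and 17 counts (0.805 and 1.54 CPM) against 4 and 2 (0.332 and 0.176 CPM). The log2 change was 2.17 (SE 0.879, adjusted p = 0.0495). It was lost without Ver enzalutamide replicate 2 (adjusted p = 0.392) or either Vc enzalutamide library (0.114 and 0.271), with no filter (0.0688) and under the replicate block (log2 change 1.67, adjusted p = 0.270). SPRY2 reached the filter's level in 6 of 8 Ver libraries and in 0 of 8 Vc libraries, so its level in Ver is what brought it into the test, which favours a higher value there. DUSP6, which likewise entered through Ver, had a log2 change of 1.73 in control (SE 0.732, adjusted p = 0.0770), and was called when the 2 groups were fitted alone (adjusted p = 0.0250) and under the replicate block (0.0137).

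**Figure D3:**
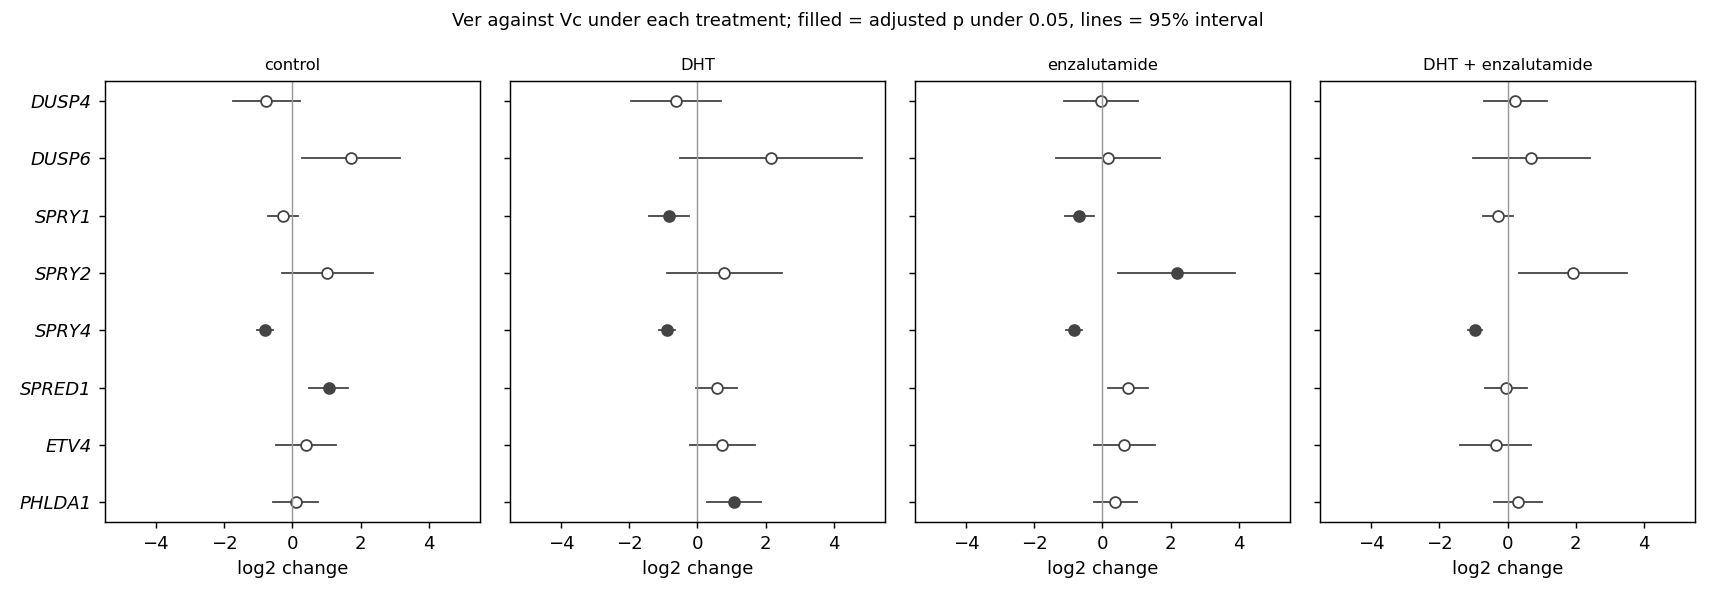
Log2 difference of Ver from Vc for the 8 tested genes (horizontal axes) under each of the 4 treatments, with 95% intervals as lines and called genes as filled points. SPRY4 lies near -0.79 to -0.95 in every panel with short intervals. SPRY1 is called with DHT and with enzalutamide, SPRED1 only in control, PHLDA1 only with DHT and SPRY2 only with enzalutamide.

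Of the 8 genes, Ver against Vc called 2 in control (SPRED1 higher, SPRY4 lower), where 18.9% of all genes were called. With DHT it called 3 (PHLDA1 higher, SPRY1 and SPRY4 lower) against 17.3% of all genes, and with enzalutamide 3 (SPRY2 higher, SPRY1 and SPRY4 lower) against 16.6%. The SPRY2 call is no support for the count, since SPRY2 was admitted by its level in Ver and was lost with no filter. With both compounds it called 1, SPRY4, lower, against 20.3% of all genes (11.0% lower). The 4 comparisons have no library in common.

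The members did not vary as 1 block. Over the 8 group means of log2(CPM + 2), the highest correlations among the 8 genes were 0.86 between SPRED1 and ETV4, 0.74 between DUSP6 and SPRED1 and 0.73 between DUSP4 and SPRY1. SPRY4 and ETV4 stood at -0.76, and SPRY1 and SPRY4 at 0.48. The 8 means share line and treatment, so these are descriptions. SPRED1 (4.05), ETV4 (1.66), DUSP4 (1.34) and DUSP6 (0.670) averaged under the 5 CPM asked of genes outside the 10. Counting error therefore weighs on the correlations of these genes. Outside the 10, among 12428 genes with at least 5 CPM, SPRY1 was most like CCDC88C (r = 0.991), ZC3HAV1L (0.988) and KDM1A (0.988) over the same means. SPRY4 was most like ARHGEF4 (r = 0.954), GCNT1 (0.949) and TTTY14 (0.939).

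Other genes of the pathway did not share one direction under DHT. Of 19 cascade genes, 9 rose and 3 fell in Vc, and 8 rose and 4 fell in Ver. Of all tested genes, DHT called 44.3% in Vc (22.5% lower) and 44.1% in Ver (22.9% lower). The median log2 change was -0.04 in Vc and 0.04 in Ver, and -0.04 in both over all genes. SHC1, the adaptor that links receptors to GRB2 and SOS, had the smallest p of the list in both lines and rose from 94.1 ± 4.37 to 242 ± 6.26 CPM (Vc) and from 136 ± 1.46 to 354 ± 6.97 CPM (Ver; SD, n = 2). On the log2 scale SHC1 rose by 1.36 with DHT in Vc (SE 0.0601, adjusted p = 1.48e-47), and the rise in Ver was 1.38 (SE 0.0581, adjusted p = 8.40e-50). SOS2, a RAS exchange factor, rose by 0.68 on the log2 scale in Vc (SE 0.0866) and by 0.72 in Ver (SE 0.0847).

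Of 21 other phosphatases and RAS or receptor brakes, 6 rose and 6 fell in Vc, and 7 rose and 6 fell in Ver. The share called over all tested genes was 44.3% in Vc and 44.1% in Ver. ERRFI1, an inhibitor of the epidermal growth factor receptor, rose from 46.3 ± 0.263 to 228 ± 10.3 CPM (Vc) and from 50.0 ± 1.56 to 219 ± 3.03 CPM (Ver). On the log2 scale it rose by 2.30 with DHT in Vc (SE 0.0710, adjusted p = 5.21e-66), and the rise in Ver was 2.13 (SE 0.0718, adjusted p = 1.12e-61). IL17RD, an inhibitor of fibroblast growth factor signalling, fell from 54.1 ± 4.75 to 5.71 ± 0.985 CPM (Vc) and from 42.5 ± 1.05 to 5.17 ± 0.253 CPM in Ver. In Vc it fell by 3.26 on the log2 scale (SE 0.155, adjusted p = 5.03e-49), and in Ver it fell by 3.04 (SE 0.161, adjusted p = 1.11e-43). RASAL2, a RAS GTPase-activating protein, fell by 2.32 (SE 0.0651) in Vc and fell by 1.78 (SE 0.0680) in Ver.

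Of 14 other ERK-induced genes, 12 were tested. CCND1, ATF3, JUN and JUNB rose and EPHA4 and FOSL1 fell in Vc, and in Ver 6 rose and 2 fell. Over all tested genes 44.3% were called in Vc and 44.1% in Ver. ATF3, a stress- and ERK-induced transcription factor, went from 4.09 ± 2.06 to 20.8 ± 5.23 CPM (Vc) and from 5.60 ± 0.715 to 51.7 ± 4.14 CPM in Ver. CCND1, cyclin D1, rose by 0.65 on the log2 scale in Vc (adjusted p = 1.27e-24) and by 0.56 in Ver (adjusted p = 7.78e-20).

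Of 25 other ETS factors, 19 were tested, and 10 rose and 4 fell with DHT in each line. Called genes made up 44.3% of all tested genes in Vc and 44.1% in Ver. The median log2 change of the tested ETS factors was 0.32 (Vc) and 0.37 (Ver). SPDEF, a prostate epithelial ETS factor, rose in Vc by 2.19 (SE 0.0516, adjusted p = 4.93e-79), while the rise in Ver was 1.96 (SE 0.0520, adjusted p = 6.85e-73). ERG, carried by the androgen-driven fusion, rose by 1.50 (SE 0.0507) and 1.79 (SE 0.0517). ETV4 of the PEA3 group was not called, with the intervals given above, and ETV1 and ETV5 could not be tested. PHLDA2, the relative of PHLDA1 that passed the filter, rose by 1.80 in Vc (SE 0.216) and by 1.21 in Ver (SE 0.219), opposite in sign to PHLDA1.

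**Figure D4:**
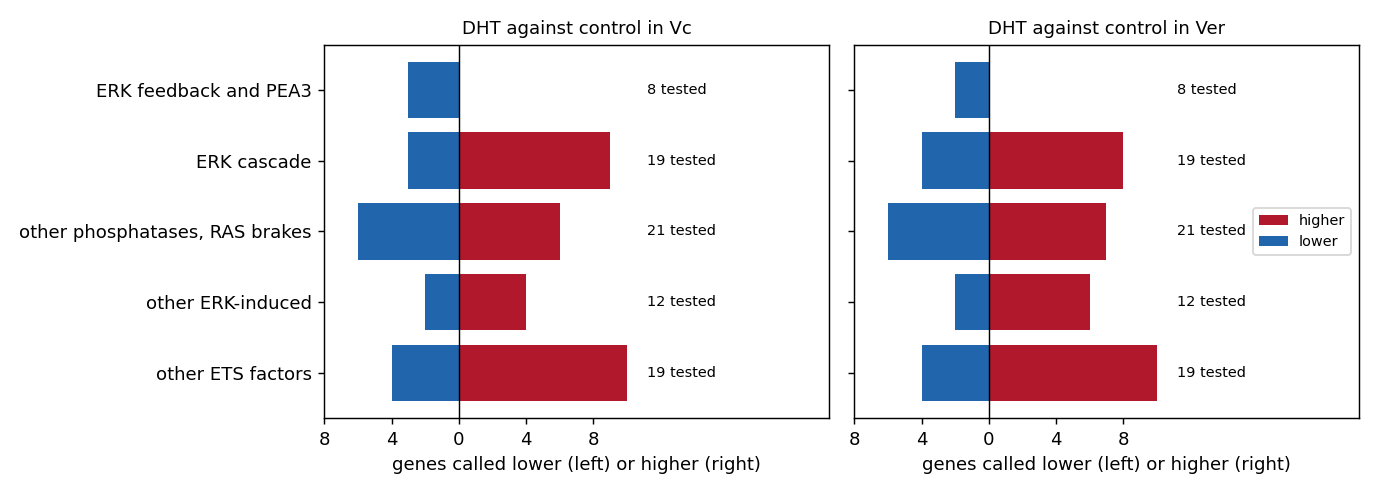
Number of genes called lower (bars to the left) or higher (bars to the right) with DHT in Vc and Ver, for the 8 tested genes and 4 other lists, with the number tested at the right. The first list has lower calls only, 3 in Vc and 2 in Ver, too few to show a shared direction. One of those in Vc is DUSP4, admitted only through groups without DHT alone. One of those in Ver is DUSP6, admitted by the Ver controls that it fell from. The other 4 lists have calls in both directions. Of all tested genes 44.3% were called in Vc (22.5% lower) and 44.1% in Ver (22.9% lower).

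When enzalutamide was added to DHT, 4 of the 12 other ERK-induced genes were called in Vc (JUN, ATF3, EGR1 and FOS) and 6 in Ver, all lower. DESeq2 called 4 genes of this list in Vc and 4 in Ver. Of all tested genes, edgeR called 22.4% in Vc (11.5% higher, the rest lower) and 26.9% in Ver (13.7% higher, the rest lower). The members called, SPRY1 and SPRY4 in both lines and DUSP4 in Ver, were higher, and the contrast between these genes and the members was not tested. EGR1, an immediate-early ERK target, went from 11.4 ± 0.990 to 5.94 ± 0.678 CPM (Vc) and from 11.7 ± 1.37 to 5.62 ± 0.690 CPM in Ver (SD, n = 2). It fell by 0.94 on the log2 scale (SE 0.194, adjusted p = 3.75e-05) and fell by 1.05 (SE 0.205, adjusted p = 6.69e-06). FOS in Vc rested on low counts and was lost without Vc DHT replicate 2 (adjusted p = 0.0597) or Vc DHT plus enzalutamide replicate 1 (0.112). Cascade genes split 1 higher and 5 lower in Vc and 2 higher and 6 lower in Ver. The other brakes split 3 higher and 6 lower in Vc and 6 and 6 in Ver. ERRFI1 fell by 1.71 (SE 0.0676) in Vc and fell by 1.80 (SE 0.0706) in Ver, and RASAL2 rose by 1.42 (SE 0.0667) and 1.04 (SE 0.0708). Of the other ETS factors, 2 rose and 4 fell in Vc and 0 rose and 5 fell in Ver.

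Enzalutamide alone called 0 cascade genes, 0 other brakes and 0 other ERK-induced genes in either line in edgeR. At an unadjusted p under 0.05 there were 1, 2 and 1 in Vc and 3, 5 and 2 in Ver, and DESeq2 called 0 in Vc and 1 in Ver, an ERK-induced gene. Of the other ETS factors ERG was called lower in both lines and ELK4 lower in Ver. Of all tested genes, enzalutamide alone called 0.537% in Vc and 1.13% in Ver.

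Between the lines, cascade genes called in control were 7 higher and 1 lower in Ver, of 19 tested, where 18.9% of all genes were called. The split was 4 higher and 2 lower with DHT, 5 and 1 with enzalutamide, and 5 and 6 with both compounds, so it did not lean one way in every treatment. Under these treatments 17.3%, 16.6% and 20.3% of all genes were called. DESeq2 called fewer cascade genes, 5 in control, 5 with DHT, 5 with enzalutamide and 8 with both compounds. BRAF, a RAF kinase, was the lower one in control, at a log2 change of -0.52 (SE 0.0573, adjusted p = 4.88e-14). The other brakes split 4 higher and 3 lower in control, with DUSP8 and DUSP16, which act mainly on JNK and p38, higher by 0.71 (SE 0.0917) and 0.56 (SE 0.0923) and RASAL2 lower, at -0.73 (SE 0.0579). Among other ERK-induced genes JUN and CCND1 were higher and EGR1 lower. Among other ETS factors ETV6 was higher by 1.47 (SE 0.160) and ERG, EHF and FEV were lower.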

How the data were processed

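RNA from VCaP cells was sequenced in 16 libraries, 2 in each of 8 groups. Per the submitters' processing notes, the authors used FastQC 0.11.7, Trimmomatic 0.36-5, HISAT2, SAMtools and HTSeq 0.11.1 with GRCh38. The deposited read counts per gene (unstranded, union mode, per the file names) were the input. The authors' deposited table of normalized values (signal: counts divided by size factors, as checked here) served for gene names. The 5 summary lines of each count file stayed out of library sizes. Genes were kept by edgeR's filterByExpr (minimum count 10) and fitted over all 8 groups by edgeR 4.0.16 quasi-likelihood with TMM scaling and 8 residual degrees of freedom, in R 4.3.3. Called means a Benjamini-Hochberg adjusted p under 0.05 over 22553 genes. CPM are TMM-scaled, and 95% intervals are the log2 change and its SE. The intervals of log2 changes include the fitted spread between libraries. The exact interval of the DUSP6 ratio and the limits of 0 counts cover counting error only. Alternatives were DESeq2 1.42.0, other size factors, no filter, only the compared groups, a replicate block and each library left out. The text names every member, and for each other list the called genes with the smallest p, and likeness is Pearson's r over group means. Some pathway genes and their values are not reported here. Members and lists were chosen with earlier results of these data known.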

Additional observations from a re-analysis of the deposited data

Results flagged for a closer look

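None of the 8 tested genes was shown to differ between the lines in its response. Of the other pathway genes, 4 were called by the test of the difference itself (Ver minus Vc, edgeR, adjusted over all genes), and lane cannot be told apart from line in any of them. For the DHT effect the log2 difference was 0.30 for BRAF (adjusted p = 0.0223), 0.55 for RASAL2 (adjusted p = 1.36e-05), -0.48 for LRIG1 (adjusted p = 0.00115) and 0.29 for ERG (adjusted p = 0.00797). For enzalutamide on top of DHT it was -0.38 for RASAL2 (adjusted p = 0.0203) and -0.42 for ERG (adjusted p = 3.61e-05). When 1 library was left out in turn, BRAF was lost in 5 of 8 fits (adjusted p up to 0.330), ERG under DHT in 3 (up to 0.0869) and RASAL2 under enzalutamide on top of DHT in 5 (up to 0.363).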

How the results depend on the processing

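Of 332 alternative values for the 35 member results named, 274 kept their direction and side of the threshold, 48 were no longer called, 10 became called and 0 reversed. The 35 were taken if called in the main fit or in any alternative. The 201 results of other pathway genes were taken only where the main fit called them. Where a list had many calls, only those with the smallest adjusted p were taken. None of the 201 could become called, so their stability cannot be compared with that of the members. Of their 1947 values, 1872 kept both, 75 were no longer called and 0 reversed. DESeq2 gave no adjusted p for 7. In DESeq2 the number of members called was 1 for DHT in Ver, for both compounds against control in Ver, for Ver against Vc with DHT and with enzalutamide, and for the non-additive effect in Vc. Ver against Vc with DHT also gave 1 with no filter and with only the compared groups, and with both compounds it gave 2 with only the compared groups. The non-additive effect in Vc gave 1 with other size factors, with no filter and with the replicate block. Smaller shifts were from 3 to 2 for DHT in Vc in DESeq2 and with no filter, for Ver against Vc with DHT under the replicate block, and for Ver against Vc with enzalutamide with no filter and under the block. Ver against Vc in control went from 2 to 3 with only the compared groups and under the block. Leaving out 1 library leaves 1 in that group, assumed to vary like the others. The members called were then 2 to 3 for DHT in Vc, 1 to 2 in Ver, 2 to 3 and 3 to 3 for both compounds against DHT, and 1 to 1 and 1 to 2 for both against control, in Vc and Ver. They were 1 to 2, 1 to 1, 1 to 2 and 1 to 1 for Ver against Vc in control, with DHT, with enzalutamide and with both. They were 1 to 2 and 2 to 3 for the non-additive effect in Vc and Ver, and 0 to 0 for enzalutamide alone and for the differences between lines. The cause of these changes was not tested. The labels do not say whether libraries with the same number share a day or batch. Their deviations correlated at -0.122 to 0.102 over 12 pairs of groups, and such weak correlations cannot exclude a shared batch. Under the replicate block PHLDA1 in Ver against Vc with DHT had an adjusted p of 0.0502 and SPRY2 with enzalutamide 0.270. Other size factors moved the median of all genes by at most 0.0257 (log2). Low counts per library limit what can be said of DUSP4, DUSP6, SPRY2, ETV1 and ETV5.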
